A study of Mus musculus with 8 samples.

Results

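The genes described here encode decorin and other small leucine-rich proteoglycans: Dcn, Bgn, Lum, Fmod, Ogn, Omd, Aspn, Prelp, Kera and Podn. They were chosen by name as members of 1 protein family, 10 of the 35498 genes with a summed count, and all 10 passed the filter on low counts that left 16309 genes to test. The libraries were bulk RNA sequencing of mouse sarcoma cells: C57BL/6 mesenchymal stem cells turned into a sarcoma by deleting p53 and overexpressing Ccne1, the cyclin E1 gene (p53-/- Ccne1+), a background shared by every group. The groups were sgMif (Cas9 with a guide RNA against Mif, the gene of the cytokine macrophage migration inhibitory factor, genotype labelled Mif-knockout), sgSCR (Cas9 with a non-targeting guide, labelled Mif-wildtype), shMif (a short hairpin RNA against Mif, labelled Mif-knockdown) and shSCR (a control hairpin, labelled Mif-wildtype). Each group had 2 libraries, 8 in all. The labels tie Cas9 to the guide cells in one place and to the hairpin cells as well in another. The cells grew in recipient mice as tumours under the skin, on polyurethane scaffolds, and were recovered from the digested tumours by sorting for a fluorescent marker. The age of the mice, the number of clones and whether libraries that share a group are from different tumours are not stated in the labels. The p-values therefore measure the spread between sequenced libraries, and that spread may be technical.

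Small leucine-rich proteoglycans are secreted proteins built from leucine-rich repeats, most of which carry chondroitin, dermatan or keratan sulfate chains. They bind fibrillar collagen and regulate how fibrils assemble, and some also bind growth factors and cell surface receptors. Class I holds decorin, biglycan (Bgn) and asporin (Aspn), the last of which carries no glycosaminoglycan chain. Class II holds lumican (Lum), fibromodulin (Fmod), prolargin (Prelp), keratocan (Kera) and osteomodulin (Omd). Osteoglycin (Ogn, also called mimecan) belongs to class III and podocan (Podn) to class V. Decorin is a major product of fibroblasts in connective tissue and binds transforming growth factor beta and receptor tyrosine kinases such as the epidermal growth factor receptor and Met.

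In mm10 coordinates of the GENCODE M21 annotation, 8 of the 10 genes lay in 3 groups of neighbours, with no other protein-coding gene between the pairs named here. Dcn lay on chromosome 10 at 97479609 to 97518143 on the plus strand, 47.0 kb before Lum, which lay 34.2 kb before Kera. On chromosome 13 the order was Aspn, Omd and Ogn, with gaps of 14.9 and 15.2 kb, and the related gene Ecm2 lay 11.7 kb before Aspn. Prelp and Fmod lay on chromosome 1, 116 kb apart and on opposite strands, and Bgn (chromosome X) and Podn (chromosome 4) stood alone.

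The 3 promoter windows of the chromosome 13 group are shown because Aspn and Ogn had the most alike profiles of any pair of the 10 genes, and Omd, which lies between them, did not share that profile. Each window is the RefSeq sequence of build GRCm38.p6 from 250 bases before to 50 bases after the start annotated by RefSeq, all on the plus strand. That start is the GENCODE one for Aspn and Omd, and for Ogn it lies 31 bases upstream of it. Capitals mark matches on either strand to 3 of the 5 motifs searched: the E-box CANNTG, the TATA box TATAAA and the TEAD factor motif GGAATG. The windows are chr13:49544193-49544492 for Aspn, chr13:49582212-49582511 for Omd and chr13:49607765-49608064 for Ogn.
Aspn: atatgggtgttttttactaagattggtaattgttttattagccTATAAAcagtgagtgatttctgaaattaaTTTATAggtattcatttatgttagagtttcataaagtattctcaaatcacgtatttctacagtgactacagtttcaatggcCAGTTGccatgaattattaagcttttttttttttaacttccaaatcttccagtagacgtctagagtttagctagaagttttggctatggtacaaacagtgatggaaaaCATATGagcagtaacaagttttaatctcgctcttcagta
Omd: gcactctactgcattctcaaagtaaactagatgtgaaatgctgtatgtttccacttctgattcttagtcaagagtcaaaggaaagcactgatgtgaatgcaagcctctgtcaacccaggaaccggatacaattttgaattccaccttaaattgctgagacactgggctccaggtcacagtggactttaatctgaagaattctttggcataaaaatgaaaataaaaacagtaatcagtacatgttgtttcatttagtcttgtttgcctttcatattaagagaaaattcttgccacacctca
Ogn: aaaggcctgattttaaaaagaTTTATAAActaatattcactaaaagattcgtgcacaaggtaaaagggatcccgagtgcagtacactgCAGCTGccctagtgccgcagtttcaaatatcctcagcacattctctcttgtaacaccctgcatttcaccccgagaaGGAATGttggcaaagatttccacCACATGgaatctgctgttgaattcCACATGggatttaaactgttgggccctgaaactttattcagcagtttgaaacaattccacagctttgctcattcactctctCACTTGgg

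The Aspn window held 2 E-box and 2 TATAAA matches, and the Ogn window held 4 E-box, 2 TATAAA and 1 GGAATG match. The 2 TATAAA matches of Ogn overlap on opposite strands and lie near the far end of the window from the start. Those of Aspn are also far from the start, at -207 on the plus strand and -178 on the minus strand. The Omd window held no match to these motifs. Of 32851 promoter windows of the same length, 72.3% held an E-box, 13.6% TATAAA and 14.7% GGAATG. RefSeq windows were matched for 8 of the 10 genes. The AP-1 motif TGANTCA, present in 7.81% of all windows, was in none of the 8, and the GC box GGGCGG, present in 35.7%, occurred 3 times in the Bgn window and 2 times in the Podn window.

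The libraries held 19042235 to 51819308 estimated reads. Mif had 221 and 222 CPM (TMM-normalised counts-per-million units) in the sgMif libraries, against 377 and 455 CPM in sgSCR (log2 fold change -0.91 ± 0.32 SE, edgeR quasi-likelihood adjusted p = 0.215). It had 277 and 222 CPM in the libraries labelled shMif, against 170 and 375 CPM in shSCR (-0.13 ± 0.32, edgeR adjusted p = 0.925). Both sgMif libraries were below both sgSCR libraries without passing the test, and the hairpin libraries overlapped, so directions drawn from shMif rest on the label. The summed level of 1406 olfactory receptor genes, which are silent in most tissues, was under 1000 CPM in sgMif 2, shMif 2 and shSCR 2 and above it in the other 5 libraries. shSCR 1 had 5.41% of its reads on retained-intron transcripts and 1.63% on mitochondrial genes, the highest and the lowest share of the 8.

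Compared per length, in TPM, Bgn was the highest of the 10 genes and Dcn the second in all 8 libraries. Together they held 92.1 to 98.2% of the summed TPM of the family. The sum over the 10 genes was 2156 and 1908 TPM in sgMif, 2575 and 2492 TPM in sgSCR, 2246 and 2297 TPM in shMif, and 1443 and 2106 TPM in shSCR. Aspn held rank 3 or 4 in every library at 19.1 to 90.0 TPM, and Ogn ranks 4 to 6 at 8.63 to 51.6 TPM. Lum ranged from 0.850 to 64.7 TPM, Omd from 2.91 to 13.7 TPM, Podn from 0.919 to 4.94 TPM and Prelp from 0.178 to 3.37 TPM. Fmod ranged from 0 to 3.48 TPM, with ranks 7 and 8 in the sgMif libraries and 9 or 10 in the others, and Kera was under 1 TPM in every library.

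**Figure D1:**
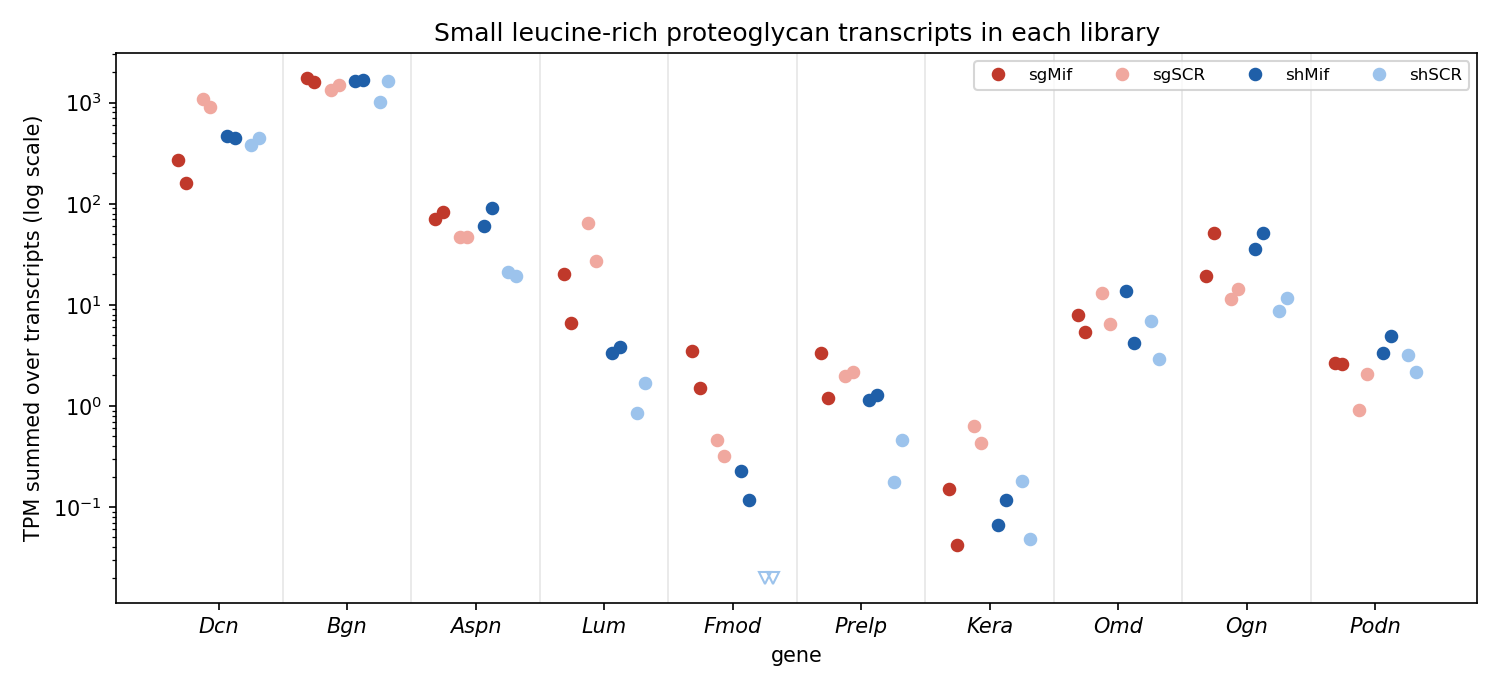
TPM of each of the 10 genes in each library on a log scale, with 1 point for each library and the 2 libraries of a group side by side. Open triangles at the bottom mark Fmod in shSCR, which had 0 reads. Bgn lies above 1000 TPM in every library, and the points of Lum are spread over the widest range of the genes with reads in all 8 libraries.

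The balance between decorin and biglycan differed between the guide groups. Dcn made up 12.6 and 8.34% of the summed TPM of the family in sgMif, against 42.4 and 36.1% in sgSCR. In the hairpin libraries its share was 21.0 and 19.7% in shMif, against 26.6 and 21.1% in shSCR. There were thus 6.46 and 10.05 TPM of Bgn for each TPM of Dcn in sgMif, 1.23 and 1.66 in sgSCR, 3.51 and 3.74 in shMif, and 2.66 and 3.65 in shSCR. With Bgn and Dcn left out, the other 8 genes summed to 128 and 150 TPM in sgMif, 141 and 101 TPM in sgSCR, 118 and 156 TPM in shMif, and 41.0 and 38.1 TPM in shSCR, the group that lies apart in this sum.

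**Figure D2:**
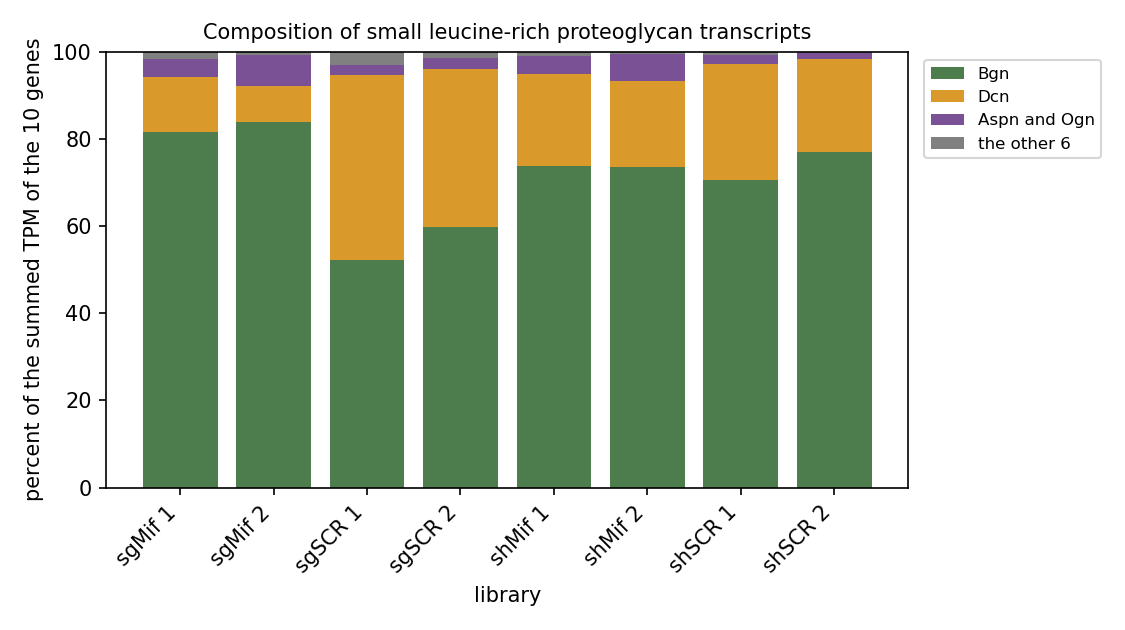
Share of the summed TPM of the 10 genes held by Bgn, by Dcn, by Aspn with Ogn and by the other 6 genes, 1 bar for each library. Dcn holds 36.1 to 42.4% in the sgSCR libraries and under 27% in all others.

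Decorin was the only member that passed the test between the guide groups, where it fell. Dcn had 307 and 192 CPM in the sgMif libraries, against 1238 and 1028 CPM in sgSCR, with means of 249 ± 81.3 CPM and 1133 ± 149 CPM (SD, n = 2 each). Both sgMif libraries were below both sgSCR libraries, and below all 4 hairpin libraries as well. The level was 4.54-fold lower (log2 fold change -2.18 ± 0.23 SE, edgeR adjusted p = 0.0149). Of all genes tested, 0.987% were called in this comparison, 0.619% lower and 0.368% higher, and of the 10 members 1 was called lower and 0 higher. The median log2 fold change of the 10 genes was 0.50, beside -0.01 over all genes tested. Without sgMif 2 the value was -1.88 and the call was lost (edgeR adjusted p = 0.124). It was also lost without sgSCR 1 (-2.05, edgeR adjusted p = 0.0837) and without sgSCR 2 (-2.29, edgeR adjusted p = 0.116). Such fits leave a group with a single library, which is assumed to vary as the other groups do. Among the 5 libraries with more olfactory receptor reads, which hold 1 sgMif and 2 sgSCR libraries, the value was again -1.88, given here with no p because only the sgSCR pair supplies spread.

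The fold changes of the other members lay on both sides of 0 between the guide groups and did not pass the edgeR test, so the following are values only. DESeq2 called Ogn and Fmod higher and Lum lower in sgMif, beside Dcn, and over all genes 483 higher and 507 lower of 15044. Biglycan, the closest relative of decorin, had 3184 and 3006 CPM in sgMif, against 2392 and 2727 CPM in sgSCR (0.27 ± 0.21, edgeR adjusted p = 0.537). Its libraries did not overlap, but the difference was close to its standard error. Asporin, which binds collagen and transforming growth factor beta, had 98.0 and 125 CPM in sgMif, against 69.0 and 66.3 CPM in sgSCR (0.72 ± 0.23, edgeR adjusted p = 0.180). Osteoglycin, first isolated from bone, had 30.7 and 90.1 CPM in sgMif, against 19.4 and 23.6 CPM in sgSCR (1.50 ± 0.46, edgeR adjusted p = 0.163). The 2 sgMif libraries of Ogn differed widely, and both were above both sgSCR libraries.

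Of the keratan sulfate class, fibromodulin and lumican, which share a binding region on type I collagen, lay on opposite sides. Fmod had 8.67 and 3.88 CPM in sgMif, against 1.13 and 0.798 CPM in sgSCR (2.68 ± 0.63, edgeR adjusted p = 0.103). Its counts were low, with 190 and 172 reads in sgMif and 45 and 16 reads in sgSCR. Lum had 32.7 and 11.5 CPM in sgMif, against 108 and 45.4 CPM in sgSCR (-1.80 ± 0.56, edgeR adjusted p = 0.166). Groups did not overlap for either gene, and within each group the 2 libraries of Lum differed by more than those of Dcn. Kera, a cornea proteoglycan, had 5 and 3 reads in sgMif, against 39 and 13 reads in sgSCR (-2.52 ± 1.14, edgeR adjusted p = 0.322). Omd, known from mineralised tissue, gave -0.68 ± 0.62 (edgeR adjusted p = 0.611), Prelp, which binds heparan sulfate, 0.74 ± 0.57 (edgeR adjusted p = 0.551) and Podn 0.91 ± 0.42 (edgeR adjusted p = 0.329). Omd and Prelp overlapped between sgMif and sgSCR, and Podn did not.
By the absence of overlap, 5 members were higher and 3 lower in sgMif than in sgSCR, where 27.1% of all genes tested were higher and 24.2% lower in that sense. Kera, among the 3 lower, passed the filter on low counts only through its reads in sgSCR, where it was high. Its separation is therefore no support for a fall in sgMif. An unadjusted p under 0.05 was reached by 5 of the 10 genes and by 16.6% of all genes tested.

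**Figure D3:**
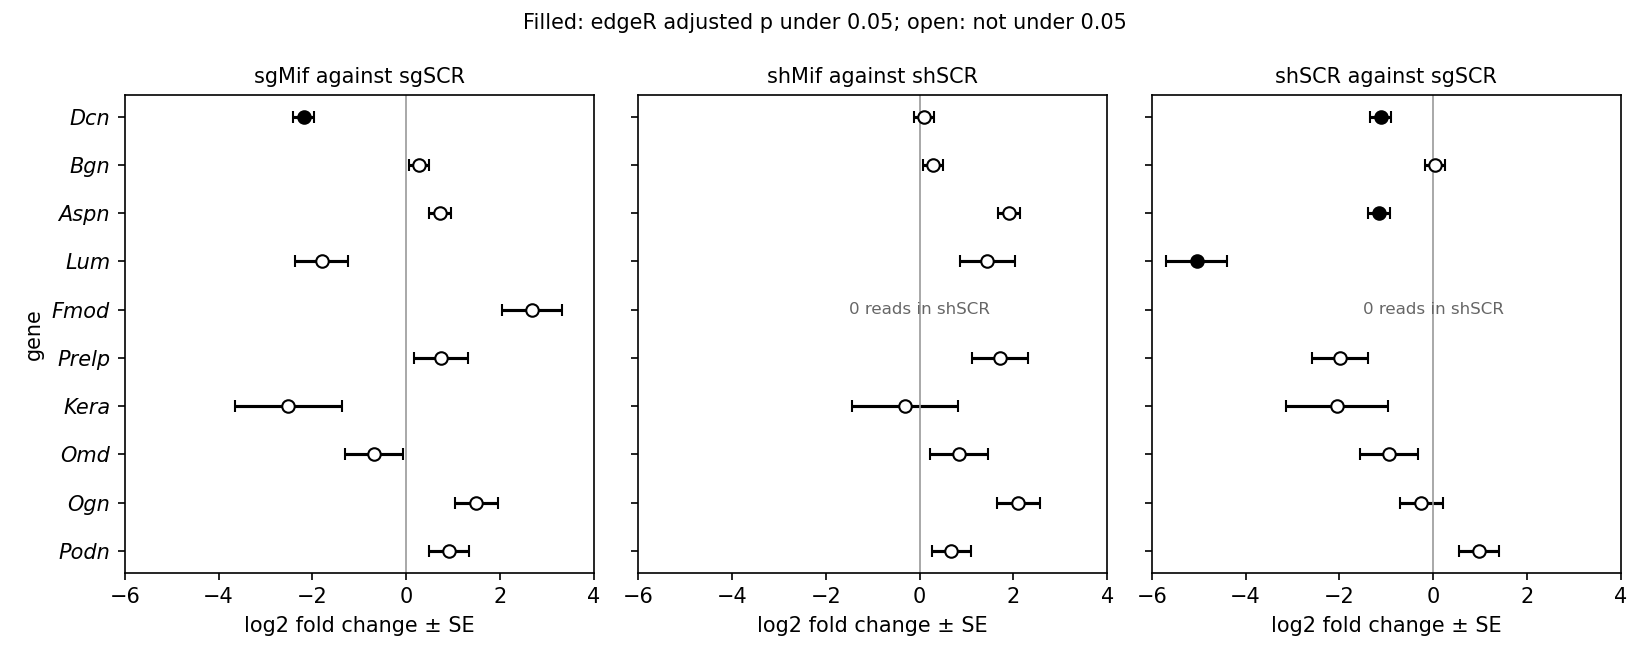
Log2 fold change with its standard error for each gene in sgMif against sgSCR, in libraries labelled shMif against shSCR, and in shSCR against sgSCR. Filled points passed an edgeR adjusted p of 0.05. Fmod is drawn only in the first panel because shSCR had 0 reads of it, which leaves its fitted values without a bound. Dcn lies at -2.18 in the first panel and at 0.09 in the second.

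Between the hairpin groups no member passed the test, and 9 of the 10 fitted values were above 0. Of all genes tested 0.0184% were called in this comparison, all 3 of them higher in shMif, and an unadjusted p under 0.05 was reached by 5 members and by 9.26% of all genes tested. DESeq2 called 3 members here, Aspn, Ogn and Fmod, all higher, and over all genes 128 higher and 54 lower of 13147. The median log2 fold change of the 10 genes was 1.14, beside 0.03 over all genes tested. Dcn had 545 and 566 CPM in the libraries labelled shMif, against 491 and 551 CPM in shSCR (0.09 ± 0.22, edgeR adjusted p = 0.919), and its libraries overlapped. Aspn had 86.6 and 141 CPM in shMif, against 32.1 and 28.8 CPM in shSCR (1.91 ± 0.24, edgeR adjusted p = 0.0999). It was called without shMif 1 (2.22, edgeR adjusted p = 0.0447) and without shSCR 2 (1.83, edgeR adjusted p = 0.0207), fits in which 1 arm is a single library and the spread comes from the other groups. Ogn had 60.5 and 94.2 CPM in shMif, against 15.2 and 20.8 CPM in shSCR (2.10 ± 0.47, edgeR adjusted p = 0.404).

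Of the class II genes, Lum had 5.56 and 6.997 CPM in shMif, against 1.58 and 3.03 CPM in shSCR (1.44 ± 0.59, edgeR adjusted p = 0.523). Fmod had 11 reads in each shMif library and 0 in both shSCR libraries, which makes its mean at least 6.35-fold higher in shMif when 3 counts are set in each shSCR library (edgeR adjusted p = 0.297). This bound covers counting error only. Prelp had 3.35 and 3.24 CPM in shMif, against 0.571 and 1.43 CPM in shSCR (1.71 ± 0.60, edgeR adjusted p = 0.489). Bgn gave 0.28 ± 0.21 (edgeR adjusted p = 0.687), Podn 0.67 ± 0.41 (edgeR adjusted p = 0.642) and Omd 0.83 ± 0.62 (edgeR adjusted p = 0.687). Kera, at 2 and 7 reads in shMif and 12 and 4 reads in shSCR, gave -0.31 ± 1.13 (edgeR adjusted p = 0.951). Overlap was absent for 6 members, all higher in shMif, as for 19.4% of all genes tested.

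Fmod, Ogn, Aspn and Podn were higher without overlap in both Mif comparisons, which held for 4.57% of all genes tested. The 2 comparisons share no library. Aspn and Ogn also separated all 4 sgMif and shMif libraries from all 4 sgSCR and shSCR libraries, at 86.6 to 141 against 28.8 to 69.0 CPM for Aspn and at 30.7 to 94.2 against 15.2 to 23.6 CPM for Ogn. Of all genes tested 1.64% were higher in that way. In the fit with 1 Mif effect common to both systems, Aspn gave 1.31 ± 0.26 (edgeR adjusted p = 0.189), Ogn 1.80 ± 0.33 (edgeR adjusted p = 0.164), Fmod 3.50 ± 0.74 (edgeR adjusted p = 0.208, a fitted value with no bound) and Dcn -1.05 ± 0.44 (edgeR adjusted p = 0.598). The percentage of genes called in that fit was 0.0, and an unadjusted p under 0.05 was reached by 6 members and by 8.01% of all genes. DESeq2 called Aspn, Ogn and Fmod, all higher, and over all genes 147 higher and 132 lower of 14095.

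The test of whether the Mif comparison differed between the systems, shMif against shSCR minus sgMif against sgSCR, gave 2.28 ± 0.31 for Dcn (edgeR adjusted p = 0.0681). With 1 arm reduced to a single library, the difference for Dcn was called without sgMif 1 (2.61, edgeR adjusted p = 0.0472) and without shSCR 2 (2.35, edgeR adjusted p = 0.0218). The same difference was 3.24 ± 0.81 for Lum (edgeR adjusted p = 0.165), 1.19 ± 0.33 for Aspn (edgeR adjusted p = 0.182) and 4.18 ± 1.31 for Fmod (edgeR adjusted p = 0.217, no bound). No member passed this test, where 0.092% of all genes were called. An unadjusted p under 0.05 was reached by 4 members and by 15.8% of all genes. DESeq2 called Dcn, Aspn and Lum, and over all genes 383 higher and 271 lower of 14411.

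The control groups differed from each other in several members. Dcn had 491 and 551 CPM in shSCR, against 1238 and 1028 CPM in sgSCR, and fell by 1.12 on the log2 scale (SE 0.22, edgeR adjusted p = 0.0370). Lum had 1.58 and 3.03 CPM in shSCR, against 108 and 45.4 CPM in sgSCR, 33.0-fold lower (-5.04 ± 0.65, edgeR adjusted p = 0.0106). Fmod, with 0 reads in shSCR and 61 in sgSCR, was at least 13.9-fold lower (edgeR adjusted p = 0.0173). Aspn had 32.1 and 28.8 CPM in shSCR, against 69.0 and 66.3 CPM in sgSCR (-1.15 ± 0.24, edgeR adjusted p = 0.0400). Thus 4 of the 10 genes were called, all lower, where 4.02% of all genes tested were called 1.79% lower and 2.23% higher. Prelp gave -1.98 ± 0.60 and did not pass (edgeR adjusted p = 0.101). Only the Lum call held without sgSCR 1, without sgSCR 2 or without shSCR 1, each of which left 1 member called, and with counts scaled by transcript length 2 remained, Lum and Fmod. This comparison shares its libraries with the Mif comparisons.

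Ordered by mean CPM, Dcn ran sgSCR, shMif, shSCR and sgMif, and among neighbours in that order only the hairpin groups overlapped. Lum ran sgSCR, sgMif, shMif and shSCR, and Fmod sgMif, sgSCR, shMif and shSCR, with no overlap between neighbours in either. Both genes were thus higher in each guide group than in each hairpin group. The share of all genes tested with such an order is not given here, so this is a description only. With 2 libraries a group, absence of overlap was common. In sgMif against sgSCR 27.1% of all genes tested were higher and 24.2% lower without overlap. Bgn varied least, with 1.61-fold between its highest and lowest library, and its neighbouring groups all overlapped. Aspn and Ogn both ran shMif, sgMif, sgSCR and shSCR. As a description over 8 libraries, the root mean square difference between gene-centred log2 CPM profiles was smallest for Aspn and Ogn, at 0.54. It was 0.63 for Bgn and Podn and 0.65 for Dcn and Kera.

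Most Dcn reads were assigned to 2 transcripts that differ in their first exon. Dcn-201 starts at the upstream first exon, chromosome 10 from 97479609 to 97479789, and Dcn-202 at a downstream one, from 97482367 to 97482547, with 2758 bases between the starts. Both first exons have 181 bases, share no run longer than 8 bases, and are followed by the same sequence with the same 1062 coding bases, so the encoded protein is the same. Only the first exon, 10.3% of the transcript, tells them apart. Dcn-202 had 1.77 and 3.005 TPM in sgMif, against 82.3 and 73.6 TPM in sgSCR, and 17.5 and 14.9 TPM in shMif, against 40.7 and 20.8 TPM in shSCR. The ratio of mean TPM in sgMif and sgSCR was 32.7-fold lower for Dcn-202 and 4.28-fold lower for Dcn-201.

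As a share of Dcn TPM, Dcn-202 made up 0.651 and 1.89% in sgMif, against 7.53 and 8.18% in sgSCR. It made up 3.72 and 3.30% in shMif, against 10.6 and 4.67% in shSCR. The 4 libraries with a sequence against Mif were all below the 4 control libraries, at 2.39 ± 1.40% and 7.75 ± 2.45% (SD, n = 4 each, exact two-sided permutation p = 0.0286, the smallest that 4 against 4 allows). The permutations exchanged libraries between the guide and hairpin systems, and so ignored that each Mif group has its own control. Exchanges kept within each system would leave fewer arrangements and a larger smallest p. Within 1 system, an exact permutation test of 2 against 2 cannot go below p = 0.333. This measure was chosen for its values and then tested on them, so the p is no independent evidence. Among the second transcripts of 11715 genes, 0.999% were separated in this way and lower, and 2.06% in either direction. The shares are Salmon estimates that rest on reads reaching the first exon, with 43.8 and 161 estimated Dcn-202 reads in sgMif and 3740 and 1685 in sgSCR. shSCR 1, which had the highest share, was also the library with the most retained-intron reads, and without it the difference in means was -4.40 percentage points, beside -5.36 with it. Among the 5 libraries with more olfactory receptor reads the difference in means was -6.59 percentage points (2 against 3 libraries), and among the other 3 it was -2.07 (2 against 1), with no overlap in either.

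**Figure D4:**
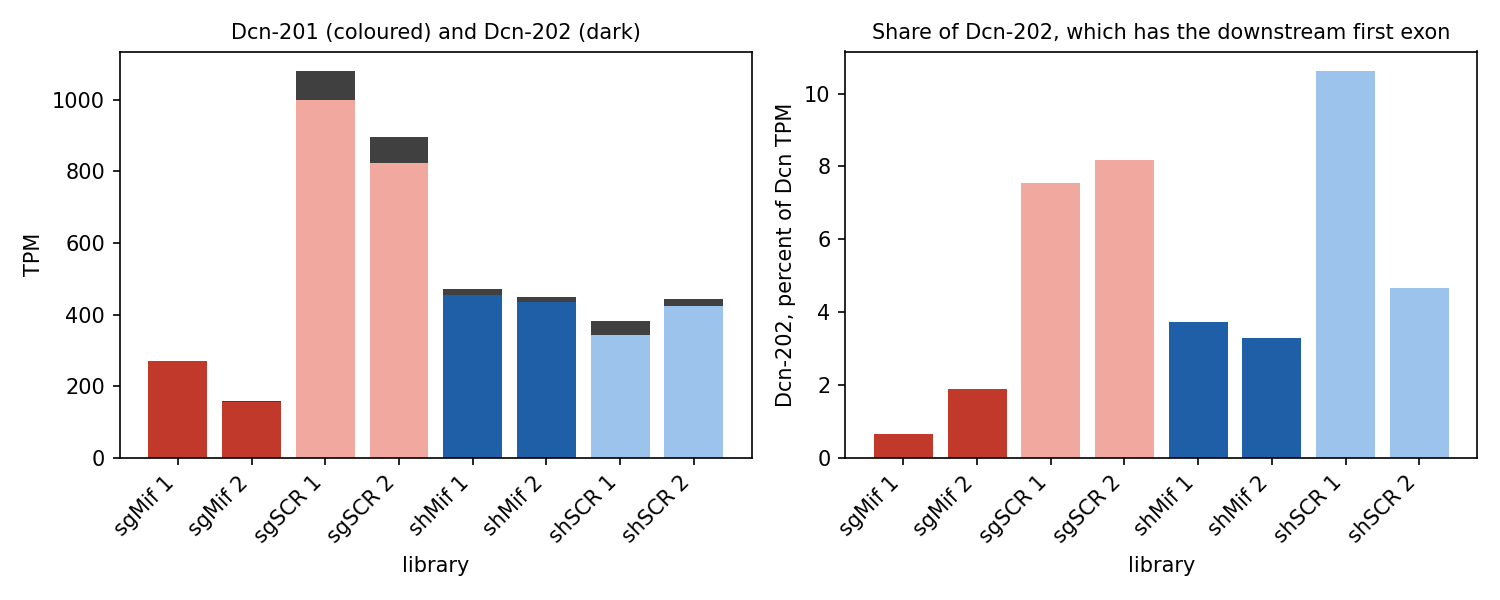
Left, TPM of the transcripts Dcn-201 and Dcn-202 stacked in each library, and right, Dcn-202 as a percentage of all Dcn TPM. The bars at right stand between 0.651 and 3.72% in the sgMif and shMif libraries and between 4.67 and 10.6% in the sgSCR and shSCR libraries.

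The remaining members were carried mostly by 1 or 2 coding transcripts. In Prelp, the non-coding transcript Prelp-202 held 42.6 and 37.9% of TPM in sgSCR and 23.3% in shMif 2. Its share was 0 in the other libraries. Bgn-201 held at least 99.5% of Bgn TPM in every library. The exons of Aspn overlap those of Cenpp on the opposite strand, a kinetochore gene with 2.42 to 7.85 CPM, and the strand setting of the libraries was not stated, so reads in the shared stretch cannot be assigned with certainty. Prelp overlaps the annotated gene Gm15851 in the same way.

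Genes of the small leucine-rich repeat family outside the 10 were low or did not pass the test between the guide groups. Of 8 such genes 5 were tested and 0 called. Beside this and the lists that follow, the share of all genes tested that was called was 0.987% in sgMif against sgSCR. It was 0.0184% in shMif against shSCR and 4.02% in shSCR against sgSCR. Tsku, which encodes the secreted protein tsukushi, had 19.8 and 19.3 CPM in sgMif, against 25.6 and 37.6 CPM in sgSCR (-0.69 ± 0.22, edgeR adjusted p = 0.174). Ecm2, the neighbour of Aspn, gave -0.39 ± 0.33 (edgeR adjusted p = 0.585). Optc, the neighbour of Prelp, gave 0.88 ± 0.78 at 0.202 to 1.55 CPM (edgeR adjusted p = 0.603). Epyc, next to Kera, and Nyx were under 1 TPM in all libraries and Chad had 0 reads.

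Of 23 tested genes that build chondroitin and dermatan sulfate chains, 2 fell in sgMif and 0 rose. Xylt1, the xylosyltransferase that starts the chain on the core protein, had 44.3 and 45.3 CPM in sgMif, against 84.5 and 93.6 CPM in sgSCR (-0.99 ± 0.16, edgeR adjusted p = 0.0358). Pxylp1, the phosphatase that removes phosphate from the xylose of the linker, had 38.6 and 32.0 CPM in sgMif, against 71.6 and 60.02 CPM in sgSCR (-0.90 ± 0.16, edgeR adjusted p = 0.0490). Chst3, which sulfates chondroitin, gave 0.89 ± 0.19 and did not pass (edgeR adjusted p = 0.0772). Each of the Xylt1 and Pxylp1 calls was kept in 2 of 8 fits that left out 1 library, and in none of those that left out an sgMif or sgSCR library. The median over the 23 genes was 0.09. In shMif against shSCR 0 of these genes were called, and in shSCR against sgSCR Pxylp1 was the only one called (-0.80 ± 0.16, edgeR adjusted p = 0.0379), a call kept in 1 of 8 such fits. Of 6 tested genes of keratan sulfate synthesis 0 were called in any of the 3 comparisons.

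The collagens that these proteins bind did not pass the test between the guide groups, 0 of 11, with a median of 0.09. Col1a2, a chain of type I collagen, had 7883 and 8159 CPM in sgMif, against 5529 and 5514 CPM in sgSCR (0.54 ± 0.26, edgeR adjusted p = 0.341). Col14a1, a fibril-associated collagen that binds decorin, gave -1.26 ± 0.38 (edgeR adjusted p = 0.155) and Col6a3 0.52 ± 0.18 (edgeR adjusted p = 0.211). Between the hairpin groups 0 of 11 were called, with a median of 0.77, and in shSCR against sgSCR 1 was lower, Col12a1 (-1.54, edgeR adjusted p = 0.0429, kept in 2 of 8 fits that left out 1 library), with a median of -0.76. The summed TPM of the 11 collagens was 9793 and 10319 in sgMif, 9108 and 8647 in sgSCR, 7189 and 10825 in shMif, and 5208 and 5623 in shSCR. It was lowest in shSCR, where the sum of the family members other than Bgn and Dcn was lowest too. Of those members, Podn and Kera were not lowest there.

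Of 21 tested receptors and growth factors that decorin, biglycan or lumican bind, 0 were called between the guide groups, with a median of 0.17, and 0 between the hairpin groups. The smallest p-values were those of Ccn2, a matricellular factor (1.19 ± 0.30, edgeR adjusted p = 0.105), P2rx4, a purine receptor (-0.69 ± 0.20, edgeR adjusted p = 0.140), and Met (0.58 ± 0.18, edgeR adjusted p = 0.164). In shSCR against sgSCR 4 rose and 0 fell: Bmp4, Egfr, Itga2 and Itgb1. Of all genes tested 2.23% rose and 1.79% fell there. With 1 library left out, Bmp4 was called in all 8 fits, Egfr and Itgb1 in 3 and Itga2 in 1. Of 11 tested proteases and enhancers that mature or cleave these proteins 0 were called in the 3 comparisons. Mmp3, a stromelysin, had 27.8 and 8.86 CPM in sgMif, against 92.0 and 336 CPM in sgSCR (-3.56 ± 0.79, edgeR adjusted p = 0.0775). Adamts4 gave -0.87 ± 0.18 (edgeR adjusted p = 0.0719) and Pcolce2, an enhancer of procollagen processing, 1.14 ± 0.27 (edgeR adjusted p = 0.0943).

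Among 22 tested core proteins of other proteoglycans, 1 rose and 1 fell in sgMif. Esm1, endocan, had 61.3 and 84.2 CPM in sgMif, against 27.7 and 31.6 CPM in sgSCR (1.30 ± 0.18, edgeR adjusted p = 0.0330). Tgfbr3, betaglycan, a coreceptor for transforming growth factor beta, had 48.7 and 60.8 CPM in sgMif, against 117 and 111 CPM in sgSCR (-1.06 ± 0.16, edgeR adjusted p = 0.0333). Srgn, the granule proteoglycan serglycin of blood cells, gave -2.08 ± 0.43 and did not pass (edgeR adjusted p = 0.0712). The Esm1 and Tgfbr3 calls were each kept in 2 of 8 fits that left out 1 library, and in none of those that left out an sgMif or sgSCR library. In shMif against shSCR 0 of the 22 were called. In shSCR against sgSCR 1 rose, Esm1, and 1 fell, Gpc4. There the Esm1 difference was larger than between the guide groups (3.12 ± 0.19, edgeR adjusted p = 0.0013). The level of Esm1 was 237 to 276 CPM in the 4 hairpin libraries.

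The sorted cells expressed all 10 mesenchymal markers at 1 TPM or more in at least 1 library, with sums of 9303 to 12227 TPM. Other cell types were measured beside decorin because host fibroblasts also make it. The 12 markers of host fibroblasts summed to 1334 and 1222 TPM in sgMif, 1597 and 1392 TPM in sgSCR, 1636 and 1707 TPM in shMif, and 1147 and 1523 TPM in shSCR. Gsn and Serpinf1 filled most of the guide-group sums. Gsn had 326 and 305 TPM in sgMif, against 292 and 271 TPM in sgSCR. Serpinf1 had 541 and 497 TPM in sgMif, against 708 and 495 TPM in sgSCR. The sums therefore say little about the markers at low levels. None of the 12 was under 1 TPM in every library. Between the guide groups 0 of the 12 were called, with a median log2 fold change of -0.42. Pi16 had 4.52 and 5.12 CPM in sgMif, against 11.4 and 10.6 CPM in sgSCR (-1.19 ± 0.26, edgeR adjusted p = 0.0734), and Mfap5 gave -1.43 ± 0.42 (edgeR adjusted p = 0.149). In shSCR against sgSCR 2 of the 12 fell, Dpt and Mfap5, called in 5 and 2 of the 8 fits that left out 1 library.

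The 12 macrophage markers summed to 138 and 101 TPM in sgMif, 317 and 162 TPM in sgSCR, 402 and 190 TPM in shMif, and 205.4 and 237 TPM in shSCR, and 2 fell in sgMif. These were Mrc1, at 2.01 and 5.59 CPM in sgMif, against 107 and 34.0 CPM in sgSCR (-4.18 ± 0.63, edgeR adjusted p = 0.0333), and Cd163, with 0 reads in sgMif, against 103 and 24.9 CPM in sgSCR (edgeR adjusted p = 0.0333). Each of these calls was kept in 2 of 8 fits that left out 1 library, and in none of those that left out an sgMif or sgSCR library. In shSCR against sgSCR 1 of the 12 was called, Cd163, lower in shSCR (edgeR adjusted p = 0.0232). Cd163 had 0.020 to 0.60 CPM in the 4 hairpin libraries, so it was high in sgSCR only. Mrc1 had 12.4 to 18.8 CPM in the hairpin libraries. Over the 12, the median log2 fold change was -1.41 in sgMif against sgSCR and -0.24 in shSCR against sgSCR. The 8 endothelial markers summed to 122 and 27.0 TPM in sgMif, 179 and 199 TPM in sgSCR, 114 and 33.6 TPM in shMif, and 129 and 23.5 TPM in shSCR, with 0 called. Most of the guide-group sums was Pecam1, at 70.7 and 14.9 TPM in sgMif, against 164 and 174 TPM in sgSCR. Pecam1 had 70.7 to 174 TPM in the 5 libraries with more olfactory receptor reads and 11.5 to 22.1 TPM in the other 3. Both sgSCR libraries and sgMif 1 were in the first class, so the guide groups also differed in class. The median log2 fold change of the 8 was 1.012 between the guide groups, opposite in sign to the sum. The 8 lymphocyte markers reached at most 57.4 TPM, the 6 pericyte markers 5.14 TPM and the 6 keratinocyte markers 5.53 TPM in sum, with 0 called between the guide groups. Of 11 tendon, cartilage and bone markers, Tnmd, Col2a1, Comp, Sp7 and Bglap were under 1 TPM in every library. Whether host cells had a part in the Dcn difference was not tested, and in such bulk libraries fewer cells of a type and less RNA per cell cannot be told apart.

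**Figure D5:**
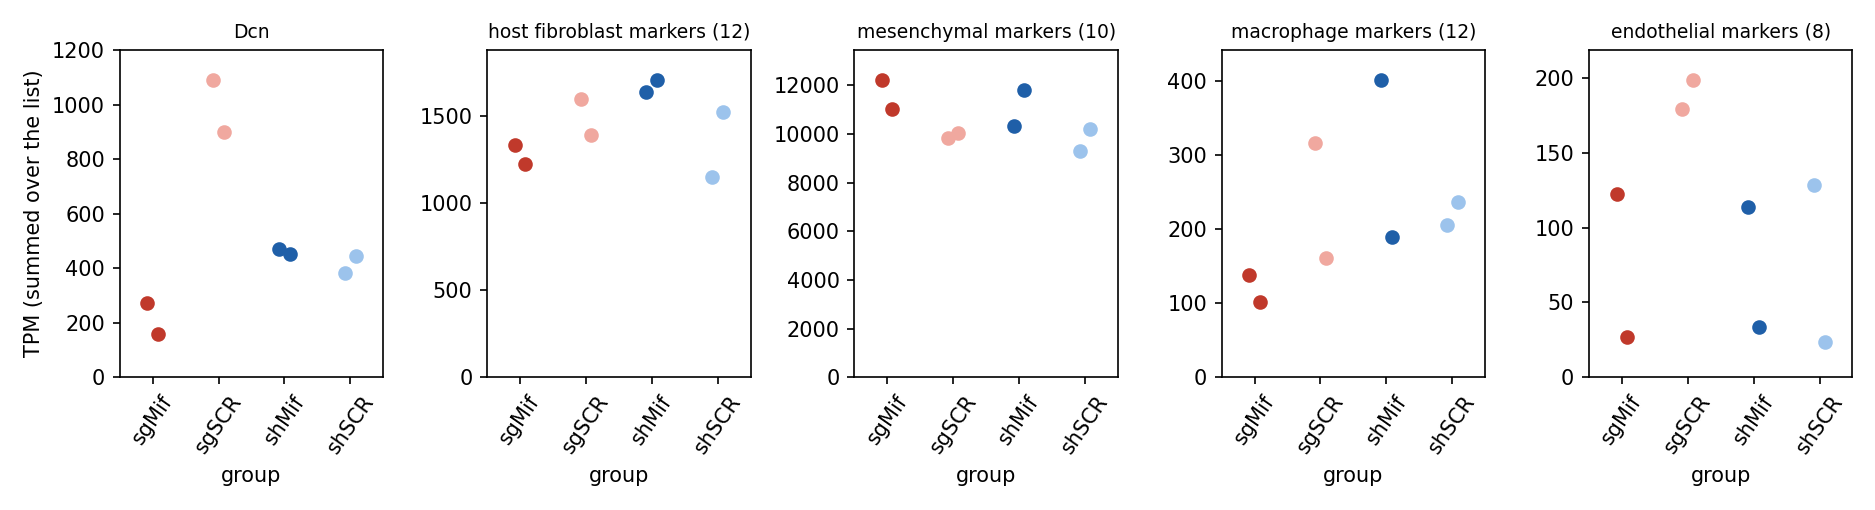
TPM of Dcn beside the summed TPM of 4 marker lists, with 1 point for each library. Dcn is 272 and 159 TPM in sgMif and 1092 and 900 TPM in sgSCR. The host fibroblast sum is 1334 and 1222 TPM in sgMif and 1597 and 1392 TPM in sgSCR, most of it Gsn and Serpinf1.

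Among 11315 protein-coding genes whose mean log2 CPM was 1 or more, the profiles most like that of Dcn over the 8 libraries were those of Gng8, Vldlr, P2ry6, Abcb1a and Tnfrsf11b, by root mean square differences of 0.30, 0.31, 0.31, 0.32 and 0.32 in centred log2 CPM. The median gene differed from Dcn by 0.88. Vldlr, the very low density lipoprotein receptor, had 3.93 and 4.51 CPM in sgMif, 16.4 and 21.6 CPM in sgSCR, 11.2 and 10.01 CPM in shMif, and 10.1 and 11.8 CPM in shSCR. Tnfrsf11b, osteoprotegerin, a decoy receptor that restrains osteoclasts, had 19.2 and 16.2 CPM in sgMif, 67.9 and 59.6 CPM in sgSCR, 30.4 and 38.7 CPM in shMif, and 53.9 and 35.4 CPM in shSCR. These genes were chosen for sharing the profile of Dcn, so their levels are a description and no test is given. None of the 5 lies on chromosome 10.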

How the data were processed

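Total RNA of sorted cells was extracted with TRIzol, per the labels' protocols, and Trimmomatic and Salmon were used with build mm10, per the submitters' processing notes. Their versions, the library kit and strandedness were not stated in these sources. For 116546 transcripts per library, the authors deposited estimated counts (Salmon's expected count of reads) and TPM, per the file headers. Here 115977 transcripts were joined to genes by GENCODE M21. The other 569, holding 0.101 to 0.205% of reads, were left out. Estimated counts and TPM were summed per gene, and counts were rounded.

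Genes passing filterByExpr (minimum count 10, minimum total 15) were tested with edgeR 4.0.16 in R 4.3.3: TMM scaling, the quasi-likelihood test, 4 group means with 4 residual degrees of freedom, or system plus Mif label with 5, and Benjamini-Hochberg adjustment over all 16309 genes at 0.05. TPM, per length, compares genes, and CPM, computed here, compares libraries. The transcript share was compared by an exact permutation test over all 8 libraries, without regard to system. The edgeR fit was run on counts simulated from the model it assumes, with changes set in sgMif only. That run cannot check whether the libraries of a group are independent. Alternatives were DESeq2 1.42.0, other size factors, no filter, length-scaled counts, protein-coding transcripts only, a replicate block, a term for the class of olfactory receptor reads (divided at 1000 CPM), the 5 libraries of the high class, each system alone, and leaving out each library. A bound against 0 reads sets 3 counts in each library.

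The text names all 10 members, Mif, up to 3 genes with the smallest p in sgMif against sgSCR from each of the 7 context lists, and the 5 genes most like Dcn. Others, including marker genes and those called in shSCR against sgSCR, were chosen after their values were seen. The members and lists were chosen with earlier results of these data known. Exact tests ran in scipy 1.17.1 under Python 3.11.15, with tables read by pandas 2.3.3.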

Additional observations from a re-analysis of the deposited data

Results flagged for a closer look

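Lum stood out because every library moved one way in the guide system and the other way in the hairpin system. It had 32.7 and 11.5 CPM in sgMif, against 108 and 45.4 CPM in sgSCR, and 5.56 and 6.997 CPM in shMif, against 1.58 and 3.03 CPM in shSCR. The difference of the Mif effects was 3.2443 on the log2 scale, which did not pass the test of the difference itself (edgeR adjusted p = 0.165). DESeq2 called it (3.28, adjusted p = 0.000298). The cause was not tested.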

How the results depend on the processing

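The fall of Dcn in sgMif against sgSCR kept its direction in every alternative run and its call in all that kept both libraries of both guide groups; leaving out single libraries gave -2.55 to -1.88. The number of members called moved more, and so did the calls over all genes, given above for DESeq2. Without the filter on low counts, 653 of 24467 genes were called higher and 841 lower in sgMif against sgSCR. The corresponding numbers were 395 and 267 in shMif against shSCR, 738 and 568 for the difference, and 237 and 312 in the joint fit. A term for the library class called 7 higher and 0 lower of 16309 genes in shMif against shSCR. Length-scaled counts called 158 higher and 154 lower of 16350 genes in shSCR against sgSCR. The high olfactory receptor class holds 2 sgSCR libraries and 1 of each other group, so its counts rest on the spread of 1 pair and support nothing about the groups. In sgMif against sgSCR, where Dcn alone was called, DESeq2 called 4, no filter on low counts 5 and the high olfactory receptor class 2, and leaving out single libraries gave 0 to 1. In shMif against shSCR, with 0 called, DESeq2 called 3, no filter 4, a term for the library class 1 and the high class 5 (1 library against 1), and leaving out libraries gave 0 to 1. For the difference of the Mif effects, with 0, DESeq2 called 3, no filter 4 and the high class 3, and leaving out libraries gave 0 to 1. In the joint fit, with 0, DESeq2 called 3 and no filter 4, and leaving out libraries gave 0 throughout. In shSCR against sgSCR, with 4, length-scaled counts called 2, and leaving out libraries gave 1 to 4. Bgn stayed highest and Dcn second in all 8 libraries with reads per effective length of protein-coding transcripts only.

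The replicate numbers were not shown to pair libraries: same-numbered libraries had deviations correlated at 0.182 (sgMif with sgSCR) and 0.263 (shMif with shSCR), over 2 pairs each. With a replicate block within each system, 2 members were called in sgMif against sgSCR (Dcn and Lum) and 0 in shMif against shSCR. There were 2 for the difference (Dcn and Lum), 0 in the joint fit and 3 in shSCR against sgSCR. Of 16309 genes, that fit called 71 higher and 192 lower in sgMif against sgSCR and 12 and 2 in shMif against shSCR. It called 45 and 5 for the difference, 0 and 0 in the joint fit, and 62 and 148 in shSCR against sgSCR.

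Of 805 alternative values for 49 results on single genes or transcripts, 611 kept their direction and side of the threshold, 132 lost the call, 53 gained one and 9 reversed. In shMif against shSCR, Kera reversed to 0.039 with the class term, and Mif to 0.70 in the high class, 1 library against 1. Leaving out 1 library gave -0.99 to 0.90 for Kera and -0.59 to 0.55 for Mif there. Leaving out 1 library also reversed Prelp in sgMif against sgSCR (-0.15 to 1.30), and Bgn (-0.0015 to 0.62) and Omd (-0.18 to 1.57) in shMif against shSCR. The share of Dcn-202 kept its separation in each alternative, which were added after seeing the data; 4 against 3 libraries cannot reach 0.05, with 0.0571 the smallest p. The causes were not tested. With 2 libraries a group and under 50 reads in each library, Kera did not pass the edgeR test in any main comparison. A change in Kera is not excluded by this.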
